A study of Mus musculus with 18 samples.

Results

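Cells commit to DNA replication when D-type cyclins bind and activate the kinases Cdk4 and Cdk6, which phosphorylate the retinoblastoma protein and release E2F transcription factors. The INK4 proteins (products of Cdkn2a, Cdkn2b and Cdkn2c) bind Cdk4 and Cdk6 directly, and the Cip/Kip proteins p27 and p57 (products of Cdkn1b and Cdkn1c) bind cyclin-kinase complexes. Cdkn2a also encodes Arf, which stabilizes p53. Cultured mouse embryonic fibroblasts are known to escape senescence through loss of Arf, loss of p53 function or viral oncoproteins that inactivate p53 and the retinoblastoma protein, and the genes of this pathway are commonly examined in immortalized lines.

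The 10 genes described here are the 3 D cyclin genes Ccnd1, Ccnd2 and Ccnd3, the kinase genes Cdk4 and Cdk6, and the inhibitor genes Cdkn1b, Cdkn1c, Cdkn2a, Cdkn2b and Cdkn2c. They were chosen by name, with earlier results of these data known. Their values were taken from the rows of 3 tables that compare 2 immortalized mouse embryonic fibroblast lines. One line is labelled Wild-Type (WT below). The other is labelled eIF2aS51A (S51A below) and carries the form of the translation initiation factor eIF2α whose regulatory serine is replaced by alanine. Cells of each line were untreated or given 500 µM hydrogen peroxide (H2O2) for 15 or 120 min. The labels list 3 samples in each of the 6 groups, but each table holds 1 FPKM value per line (fragments scaled by transcript length and library size), so neither the depth nor the spread between samples is known and values carry no error. The series' design text speaks of duplicates instead. Each genotype is 1 line. The sources used here do not say how either line was immortalized, and genotype cannot be told apart from other differences between the lines.

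A gene appears in a table only if the authors called it different, at a q-value (a p-value adjusted for multiple tests) of at most 0.05. Of the 10 genes, 9 were listed in at least 1 table and 6 in all 3. In all, 10132 genes were listed in at least 1 table and 3828 in all 3. Of protein-coding genes in GENCODE M21, 43.6% were listed in at least 1 table and 16.8% in all 3. Shares of protein-coding genes, here and below, are over all 21894, whether or not they are expressed in these cells. A larger share among the genes described here or in a list is therefore not read as an excess. Ccnd3, the remaining D cyclin gene (chromosome 17, 47505051 to 47599691), was listed at no time, which says nothing about its level or its equality between the lines. Fibroblast markers were read for their levels, since being listed reflects a difference between the lines and not expression. The 10 of 11 that were listed lay between 3.61 and 1872 FPKM. At 0 min they differed both ways, with 6 higher and 3 lower in S51A. The collagen gene Col1a1 was at 241 FPKM in WT against 1160 in S51A, Vim (vimentin) at 1872 against 1075, Thy1 at 23.6 against 10.6 and Dcn (decorin) at 54.2 against 8.88. Of 18 markers of epithelial, endothelial, blood or muscle cells the 4 listed reached at most 21.7 FPKM (Krt19, a keratin gene), and the levels of the other 14 are unknown, so their presence could not be checked.

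Before treatment both listed D cyclin genes were lower in S51A and all 4 listed inhibitor genes were higher. At 0 min 7 of the 10 genes were listed, against 33.0% of protein-coding genes, with 4 higher in S51A and 3 lower. Among all genes listed at 0 min, 49.6% were higher. The median log2 ratio of S51A to WT was 0.54 over the 7 genes and -0.28 over all listed genes with both lines above 0. The split depends on scale for 1 gene, since Cdk4 moves to the higher side (log2 ratio 0.02) when ratios are centred on the median of listed genes, which makes 5 higher and 2 lower. At 15 min 8 genes were listed, against 35.9% of protein-coding genes, with 5 higher and 3 lower, where 49.9% of listed genes were higher and 50.1% lower. At 120 min 8 were listed, against 26.4%, again with 5 higher and 3 lower, where 50.9% of listed genes were higher and 49.1% lower. The median log2 ratio of the members was 0.75 at 15 min and 0.575 at 120 min, against -0.21 and 0.40 over all listed genes. Differences of at least 2-fold were found at 0 min for 2 genes higher and 2 lower (22.1% and 15.0% of listed genes), and at 15 min again for 2 and 2 (20.2% and 12.3%). At 120 min there were 3 and 3 (26.5% and 20.9%). No listed gene of the set was on different sides at different times.

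**Figure D1:**
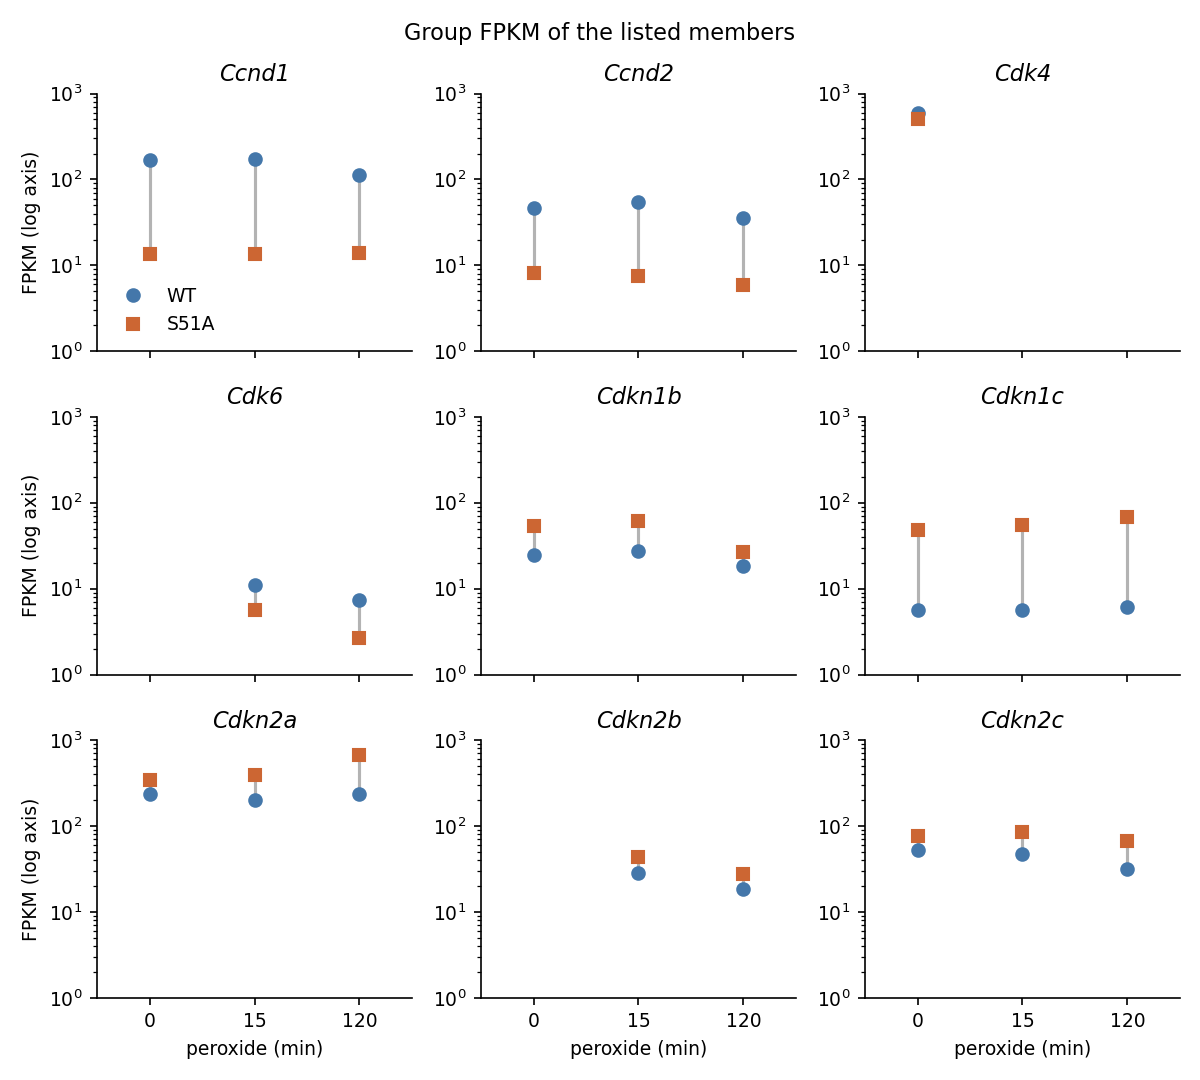
FPKM on a log axis for the 9 listed genes, with WT as blue circles and S51A as orange squares at 0, 15 and 120 min of peroxide; each point is the authors' single group value, and a time with no points means that the gene was not listed. Ccnd1 and Ccnd2 lie lower in S51A at all times, and Cdkn1c lies higher.

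Ccnd1 encodes cyclin D1, the D cyclin through which growth factor signals are best known to act in fibroblasts. The gene lies on chromosome 7 from 144929931 to 144939925 (mm10). It stood at 167 FPKM in WT against 13.6 in S51A before treatment, at 174 and 13.7 FPKM after 15 min, and at 112 and 14.0 FPKM after 120 min. WT was thus 12.2-fold, 12.6-fold and 8.0-fold above S51A, and the lowest WT value was still far above the highest S51A value. The q-values for Ccnd1 in the authors' deposited table were 0.000118, 0.000102 and 0.000198, each the smallest value that table contains. Only 1.06% of the genes listed at 0 min had a lower log2 ratio than Ccnd1. In bulk RNA, fewer cells with a transcript and less of it per cell cannot be told apart.

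Ccnd2 encodes cyclin D2, which partners with the same kinases. The tables place it on chromosome 6 from 127125709 to 127212419, a wider span than the GENCODE gene, which ends at 127152193. Ccnd2 was at 46.2 FPKM in WT against 8.11 in S51A at 0 min, at 54.9 and 7.57 FPKM at 15 min, and at 35.3 and 5.98 FPKM at 120 min. The WT level was 5.70-fold, 7.31-fold and 5.90-fold higher, and in the authors' deposited table Ccnd2 also had the smallest q-value at each time (0.000118, 0.000102 and 0.000198). Summed FPKM of Ccnd1 and Ccnd2 came to 213 in WT and 21.8 in S51A before treatment. Ccnd1 exceeded Ccnd2 in both lines, by 3.61-fold in untreated WT and 1.68-fold in untreated S51A.

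The kinase genes were lower in S51A by less than 3-fold where they were listed. Cdk4 (chromosome 10, 127063603 to 127067282) had the highest FPKM of the set in both lines before treatment, at 596 FPKM in WT against 501 in S51A. That difference of 1.20-fold had a q-value of 0.0436 in the authors' deposited table, close to the limit for listing, and Cdk4 was not listed at 15 or 120 min. Cdk6 (chromosome 5, 3344312 to 3522225) was not listed at 0 min. After 15 min Cdk6 was at 11.2 FPKM in WT against 5.66 in S51A, a 1.97-fold difference (q = 0.000102 in the authors' deposited table). After 120 min it was at 7.36 FPKM in WT against 2.68 in S51A, 2.75-fold lower in S51A (q = 0.000198 in the authors' deposited table). At its listed times Cdk6 was the lowest of the listed genes in S51A.

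Of the Cip/Kip genes, Cdkn1c showed the widest gap of any inhibitor. Cdkn1c encodes p57, an imprinted inhibitor that is transcribed mainly from the maternal allele and restrains growth in the embryo (chromosome 7, 143458339 to 143461050). It was at 5.58 FPKM in WT against 48.5 in S51A at 0 min, at 5.70 and 54.9 FPKM at 15 min, and at 6.06 and 68.1 FPKM at 120 min. S51A was 8.69-fold, 9.65-fold and 11.3-fold higher, with q-values of 0.000118, 0.000102 and 0.000198 in the authors' deposited table. At 0 min 4.59% of listed genes had a higher ratio. Cdkn1b encodes p27, the Cip/Kip inhibitor that accumulates in quiescent cells largely through slower protein turnover (chromosome 6, 134920401 to 134925525). Cdkn1b was at 24.9 FPKM in WT against 53.4 in S51A at 0 min, at 27.1 and 61.0 FPKM at 15 min, and at 18.4 and 26.9 FPKM at 120 min. Its 2.13-fold and 2.23-fold differences at 0 and 15 min carried q-values of 0.000118 and 0.000102 in the authors' deposited table, and the 1.45-fold difference at 120 min one of 0.00671. In WT the level of Cdkn1b was 4.47-fold that of Cdkn1c before treatment, whereas in S51A it was 1.10-fold.

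Cdkn2a had the highest FPKM among the inhibitors in every group. It lies on chromosome 4 from 89274473 to 89294619, and its transcripts were abundant in both lines. Cdkn2a stood at 232 FPKM in WT against 340 in S51A at 0 min, at 199 and 388 FPKM at 15 min, and at 234 and 666 FPKM at 120 min. The S51A level was 1.46-fold, 1.95-fold and 2.87-fold that of WT (q = 0.000118, 0.000102 and 0.000198 in the authors' deposited table). The WT values lay within 199 to 234 FPKM, and all S51A values were above them.

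Each Cdkn2a value sums transcripts from separate starts, so p16, the INK4 product, and Arf cannot be told apart in these tables. RefSeq (GRCm38.p6, the build of mm10) gives a distal start at 89294619, used by the Arf transcript, and a proximal start at 89282192, used by the p16 transcript. Bases upstream of both starts, and of the start of Cdkn2b next to them, are shown because these 3 promoters serve the neighbouring INK4 genes that were higher in S51A. All lie on the minus strand and are written 5′ to 3′ in the direction of transcription, ending at the last base that GENCODE M21 places outside an exon. Capitals mark matches to an E2F motif (TTTCCCGC, TTTGGCGC, TTTCGCGC or TTTGCCGC) or to a GC box (GGGCGG), searched on both strands.
Cdkn2a, Arf start, chr4:89294654-89294869: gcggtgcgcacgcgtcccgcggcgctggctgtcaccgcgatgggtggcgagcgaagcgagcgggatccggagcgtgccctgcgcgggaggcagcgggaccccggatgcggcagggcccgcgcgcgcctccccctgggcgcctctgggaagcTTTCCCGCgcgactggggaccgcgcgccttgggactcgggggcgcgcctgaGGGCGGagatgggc
Cdkn2a, p16 start, chr4:89282193-89282442: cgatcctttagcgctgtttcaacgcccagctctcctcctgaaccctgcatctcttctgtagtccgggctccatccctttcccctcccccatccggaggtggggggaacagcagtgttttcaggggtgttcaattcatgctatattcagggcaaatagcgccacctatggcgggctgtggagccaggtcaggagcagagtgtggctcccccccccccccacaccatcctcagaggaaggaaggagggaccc
Cdkn2b, chr4:89311040-89311282: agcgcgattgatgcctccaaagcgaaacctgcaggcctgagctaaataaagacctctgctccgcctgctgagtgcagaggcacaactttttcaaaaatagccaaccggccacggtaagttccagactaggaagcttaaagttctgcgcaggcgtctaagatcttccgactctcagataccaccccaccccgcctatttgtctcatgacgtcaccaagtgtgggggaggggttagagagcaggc
The Arf window holds 1 E2F match, whose first base is at position -99 counted back from the RefSeq start. In the 250 bases before a start, 1.86% of 32851 RefSeq promoter windows hold such a match and 32.7% hold a GC box. The Arf window holds 2 GC boxes, of which 1 lies in bases not shown because GENCODE counts them as exon. No match to either motif was found in the p16 or Cdkn2b windows, which says only that these letters are not there. Promoter sequences were given for 7 of the 10 genes.

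Cdkn2b and Cdkn2c encode p15 and p18, which bind Cdk4 and Cdk6 but have no Arf-like product. Cdkn2b (chromosome 4, 89306289 to 89311032) was not listed at 0 min. It was at 28.1 FPKM in WT against 43.7 in S51A at 15 min, a 1.56-fold difference (q = 0.000102 in the authors' deposited table), and at 18.3 and 27.9 FPKM at 120 min, 1.53-fold (q = 0.00799 in the authors' deposited table). Cdkn2c (chromosome 4, 109660876 to 109666756) was at 53.1 FPKM in WT against 77.2 in S51A at 0 min, at 47.5 and 85.6 FPKM at 15 min, and at 31.3 and 66.7 FPKM at 120 min. These were differences of 1.45-fold, 1.82-fold and 2.13-fold (q = 0.000336, 0.000102 and 0.000198 in the authors' deposited table). The INK4 genes thus differed in the same direction wherever they were listed, by less than Cdkn1c.

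**Figure D2:**
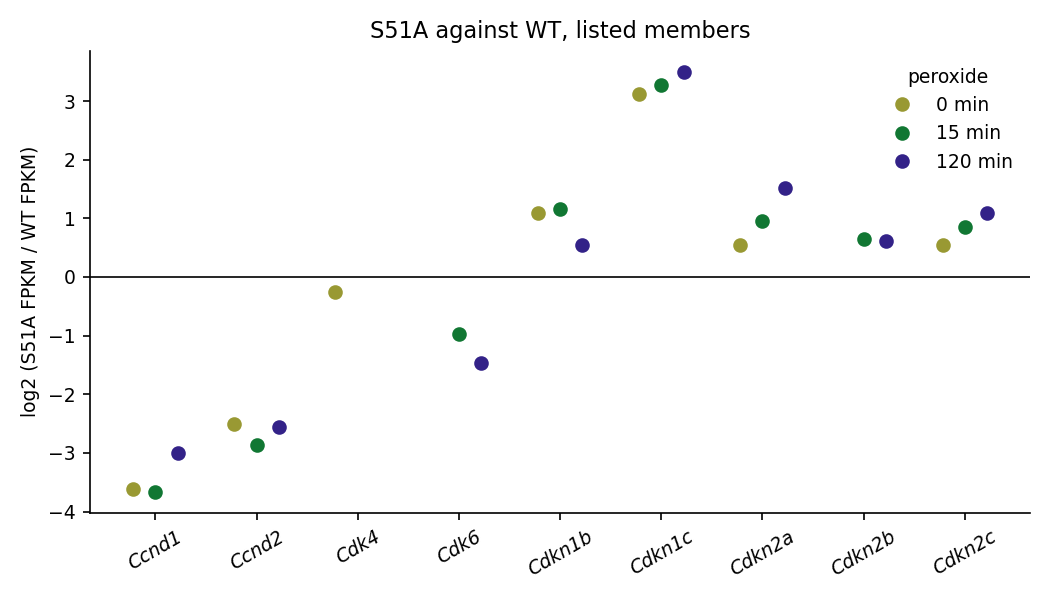
The log2 ratio of S51A to WT FPKM for each listed gene at 0, 15 and 120 min, with values above the zero line higher in S51A. Ccnd1 and Ccnd2 lie between -3.66 and -2.51, and Cdkn1c between 3.12 and 3.50.

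The order of levels differed between the lines. Before treatment WT ranked Cdk4, Cdkn2a, Ccnd1, Cdkn2c, Ccnd2, Cdkn1b and Cdkn1c from high to low FPKM. In S51A the order was Cdk4, Cdkn2a, Cdkn2c, Cdkn1b, Cdkn1c, Ccnd1 and Ccnd2, with both cyclins below every listed inhibitor. Without a spread between samples, it cannot be said whether close neighbours in these orders, such as Cdkn1b at 53.4 FPKM and Cdkn1c at 48.5 FPKM in S51A, differ. The inhibitor genes listed at all times (Cdkn1b, Cdkn1c, Cdkn2a and Cdkn2c) summed to 316 FPKM in WT against 519 in S51A before treatment. Divided by the sum of Ccnd1 and Ccnd2, this gave 1.48 in WT and 23.9 in S51A at 0 min, 1.22 and 27.7 at 15 min, and 1.96 and 41.4 at 120 min. Without Cdkn2a, which dominates the inhibitor sum, the quotient was 0.393 in WT and 8.23 in S51A at 0 min. It was 0.351 and 9.46 at 15 min, and 0.378 and 8.09 at 120 min. The rise to 41.4 in S51A was thus not seen without Cdkn2a. These quotients compare transcript levels per length, not proteins.

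**Figure D3:**
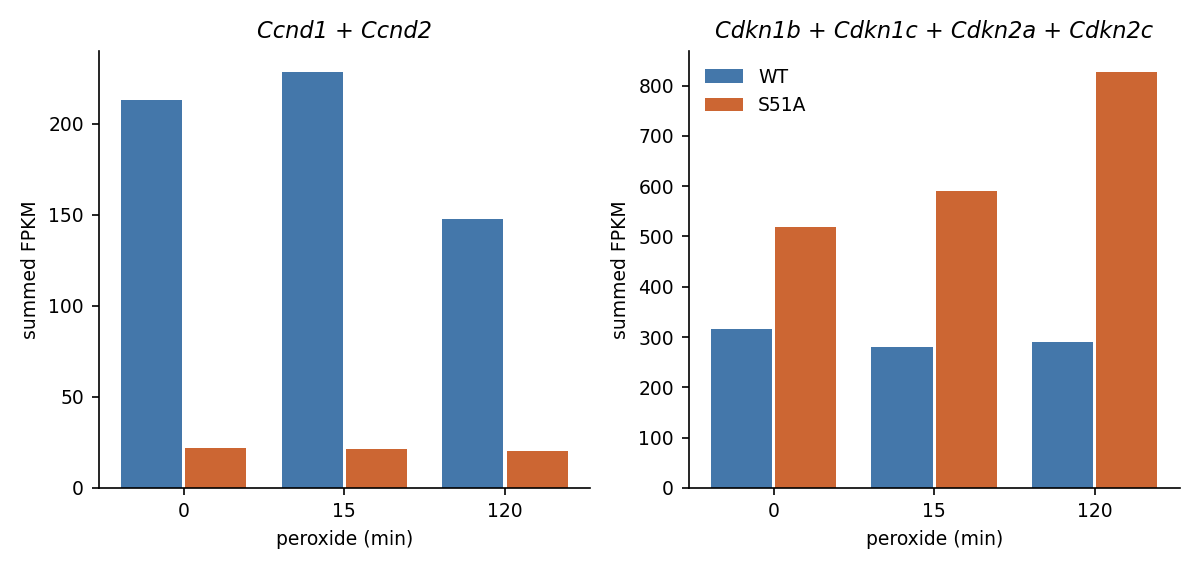
Summed FPKM of Ccnd1 and Ccnd2 (left) and of Cdkn1b, Cdkn1c, Cdkn2a and Cdkn2c (right) in WT (blue) and S51A (orange) at 0, 15 and 120 min of peroxide, from the authors' group values. The cyclin sum is lower in S51A at each time and the inhibitor sum higher.

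Levels within a line were set against 0 min on the scale log2(FPKM + 1), minus the median over genes that both tables list. Values from different tables may not share 1 normalization, and these differences are given without a test. At 15 min the 6 genes listed at all times had values between -0.23 (Cdkn2a in WT) and 0.24 (Ccnd2 in WT). At 120 min the widest value was that of Cdkn2a in S51A, at 1.15, whereas in WT Cdkn2a was at 0.11. Cdkn1b lay on the other side, with a value of -0.79 in S51A and -0.32 in WT. Cdkn2c was at -0.64 in WT and -0.03 in S51A. Ccnd1 was at -0.47 in WT and 0.21 in S51A, Ccnd2 at -0.28 and -0.21, and Cdkn1c at 0.20 and 0.66.

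The ratio between the lines also moved with transcript length over time. Between 0 and 120 min the log2 ratio of S51A to WT moved by a median of 0.72 in the shortest of 4 length classes of genes listed at both times (exonic length up to 2144 bases, 1013 genes) and by -0.70 in the longest class (from 5059 bases). Cdkn2a, with 1172 exonic bases, moved by 0.97, and 62.4% of genes in its length class moved less. Cdkn1c (1942 bases) moved by 0.38, below the 0.72 of that class. Ccnd1 (3740 bases) moved by 0.61 where the median of its class was -0.19, with 91.7% of that class lower. Cdkn2c (2686 bases) moved by 0.55 where the class median was 0.06, Ccnd2 (6711 bases) by -0.05 where it was -0.70, and Cdkn1b (4552 bases) by -0.55 where it was -0.19. The part of length in these changes was not tested.

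**Figure D4:**
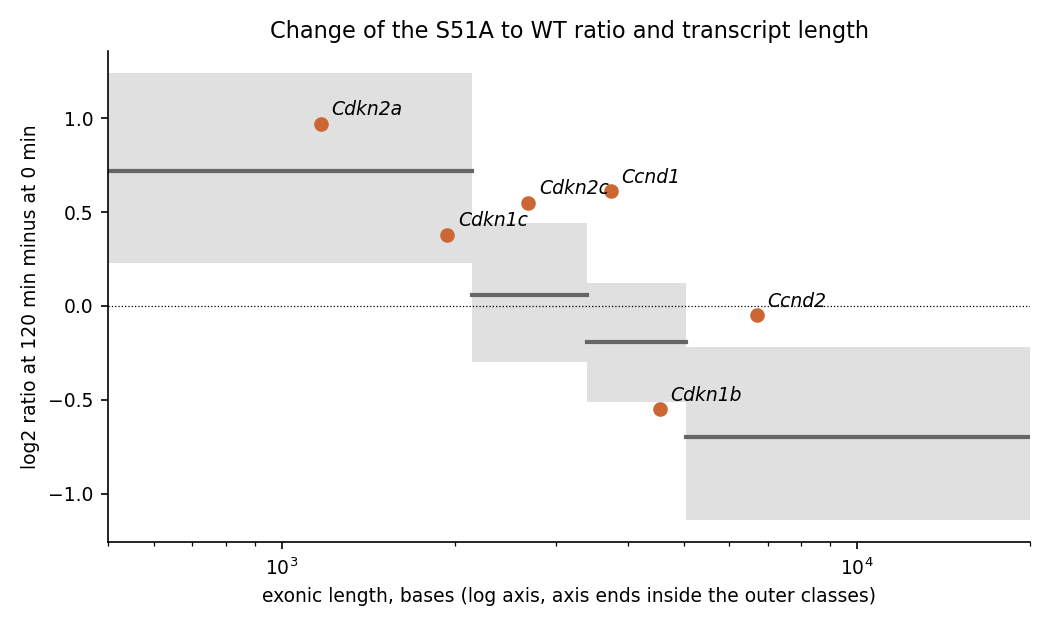
Change of the log2 ratio of S51A to WT from 0 to 120 min (vertical axis) against exonic length in bases (log axis). Grey lines and bands are the median and the quartiles of 4 length classes of listed genes, and orange points are the 6 genes listed at all times; Ccnd1, Ccnd2 and Cdkn2c lie above the band of their class and Cdkn1b below it.

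Downstream of the D cyclin kinases, a list of retinoblastoma, E2F and cyclin E/Cdk2 genes was read beside the members. Of its 20 genes 17 were listed at 0 min, against 33.0% of protein-coding genes. Of these 6 were higher and 11 lower in S51A, where 50.4% of all listed genes were lower. The median log2 ratio was -0.44 against -0.28 over all listed genes. At 15 min 8 were higher and 11 lower, with a median of -0.49 against -0.21. At 120 min 7 were higher and 7 lower, with a median of 0.035 against 0.40. Of protein-coding genes 35.9% and 26.4% were listed at these times, and 50.1% and 49.1% of all listed genes were lower. Rb1, the retinoblastoma gene, stood higher in S51A, with 2.91 FPKM in WT against 7.67 in S51A before treatment, and its relative Rbl2 was at 7.78 and 19 FPKM. E2f1, an activating E2F, was at 29.2 and 20.1 FPKM and E2f4, a repressive one, at 64.0 and 35 FPKM. Ccne1, the cyclin E1 gene, was 2.5-fold lower in S51A at 0 min, at 37.0 and 14.8 FPKM. Ccne2 was lower in S51A at 0 min (55.3 FPKM in WT against 34.3 in S51A) and higher at 120 min (19.7 and 38.1 FPKM). Their partner Cdk2 was higher at all times, by 1.58-fold before treatment and 2.41-fold at 120 min. Of the Cdk-activating kinase, Ccnh was at 37.8 FPKM in WT against 20.8 in S51A and Mnat1 at 14.4 and 23.1 FPKM at 0 min. Thus Rb1 and Cdk2 lay on the side of the inhibitors and Ccne1 on the side of the D cyclins.

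**Figure D5:**
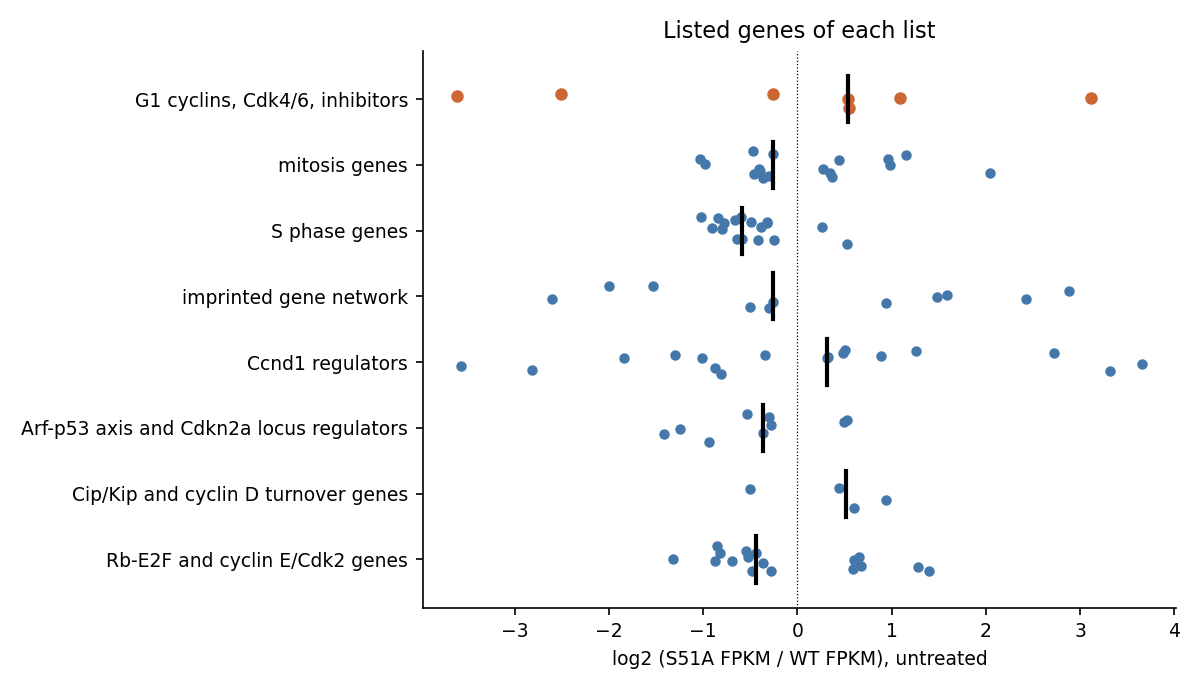
The log2 ratio of S51A to WT FPKM before treatment for listed genes of 7 context lists (blue points) and for the 7 listed G1 cyclin, kinase and inhibitor genes (orange points), with the median of each as a black bar; genes listed at 0 in one line are left out. The Ccnd1 regulators reach from -3.57 to 3.66.

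Among 12 further genes for Cdk inhibitors and for the turnover of p27 and cyclin D, 4 were listed at 0 min. That is near the 33.0% of protein-coding genes listed then. Of the 4, 3 were higher in S51A, where 49.6% of all listed genes were higher. At 15 and at 120 min 9 were listed, against 35.9% and 26.4% of protein-coding genes, with 5 higher and 4 lower each time. Among all listed genes 49.9% and 50.9% were higher at these times. Over only the 4 genes listed at 0 min the median log2 ratio was 0.52, against -0.28 over all listed genes. Cdkn1a, the p53-induced inhibitor gene, went against the other inhibitor genes, at 15.3 FPKM in WT against 10.9 in S51A at 0 min and at 16.0 and 11.1 FPKM at 15 min. Cdkn2d, the remaining INK4 gene, was listed at 15 min only, at 24.1 FPKM in WT against 28.1 in S51A. Fbxo31, whose product targets cyclin D1 for degradation, was at 3.94 and 7.57 FPKM at 0 min, Fbxw7, which targets cyclin E, at 4.53 and 6.15 FPKM, and the kinase gene Gsk3b at 15.9 and 24.1 FPKM. Gsk3b had the opposite direction at 120 min, at 14.3 and 10.9 FPKM. Also lower in S51A at 120 min were Cul1 (79.9 and 47.2 FPKM), Ambra1 (9.99 and 6.41 FPKM) and Rnf123 (7.01 and 4.08 FPKM). The 5 higher genes at 120 min included Skp2 (11.4 and 22.5 FPKM) and Cks1b (246 and 617 FPKM).

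Among 17 genes of the Arf and p53 axis and regulators of the Cdkn2a locus, 9 were listed at 0 min, against 33.0% of protein-coding genes. Of these 2 were higher and 7 lower in S51A, where 50.4% of all listed genes were lower. At 15 min 11 were listed with 1 and 10, and at 120 min 8 with 1 and 7, or 0 and 8 when centred. At these times 35.9% and 26.4% of protein-coding genes were listed, and 50.1% and 49.1% of listed genes were lower. The median log2 ratio of the list was -0.36 at 0 min, -0.43 at 15 min and -0.54 at 120 min, against -0.28, -0.21 and 0.40 over all listed genes. Trp53, which encodes p53, was at 148 FPKM in WT against 103 in S51A at 0 min, and at 152 and 110 FPKM at 120 min. Mdm2, the p53 ubiquitin ligase that Arf inhibits, was listed at 120 min only, at 63.1 FPKM in WT against 82.7 in S51A. Npm1, a nucleolar binding partner of Arf, was at 2304 and 867 FPKM before treatment. Eed, a Polycomb subunit, was at 56.9 and 24.1 FPKM, Tbx3, a T-box repressor, at 5.17 and 2.69 FPKM, Ring1, another Polycomb subunit, at 6.23 and 9.0 FPKM, and Kdm6b, a histone demethylase, at 4.35 and 6.15 FPKM. Levels of RNA give no measure of p53 sequence or activity.

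Regulators of Ccnd1 were divided at 0 min, with 9 of 22 genes higher and 8 lower. At that time 33.0% of protein-coding genes were listed, and 49.6% of listed genes were higher. The median log2 ratio was 0.32 against -0.28 over all listed genes, but the list held large differences both ways. Fosl1, an AP-1 subunit, was 11.9-fold lower in S51A before treatment (104 and 8.69 FPKM) and 2.57-fold lower at 120 min (58.5 and 22.8 FPKM). Myc was 3.58-fold lower in S51A at 0 min, at 96.3 and 26.7 FPKM, and 1.65-fold higher at 120 min, at 60.5 and 99.7 FPKM. Lef1, a Wnt pathway factor, was at 5.70 FPKM in WT against 0.812 in S51A. On the other side Egfr was at 1.26 FPKM in WT against 16.0 in S51A, Fos at 1.48 and 14.8 FPKM, and Stat5a at 1.79 and 11.9 FPKM. At 15 min 7 of the list were higher and 10 lower, with a median of -0.38 against -0.21. At 120 min 8 were higher and 7 lower, with a median of 0.56 against 0.40. At these times 35.9% and 26.4% of protein-coding genes were listed, and 49.9% and 50.9% of listed genes were higher. The median of this list thus changed side between times, but the genes listed were not the same at each time. Sp1, Creb1 and Stat3, higher at 0 min, were not listed at 15 min, where Jund, Ets2 and Elk1 were newly listed. No gene of the list that was listed at both 0 and 15 min changed direction between them.

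Many S phase genes are known targets of E2F factors, and those listed were mostly lower in S51A before treatment. Of 30 S phase genes 17 were listed at 0 min, against 33.0% of protein-coding genes, with 2 higher and 15 lower. Their median log2 ratio was -0.59 against -0.28 over all listed genes, of which 50.4% were lower. Tk1 (thymidine kinase) was at 118 FPKM in WT against 58.1 in S51A, and Gins1 at 47.2 and 26.4 FPKM. The exceptions were Ccna2, the cyclin A2 gene, at 115 and 168 FPKM, and the helicase gene Mcm2 at 86.8 and 104 FPKM. The S phase list had 5 higher and 14 lower at 15 min and 5 and 10 at 120 min, with medians of -0.31 and -0.49. Over all listed genes the medians were -0.21 and 0.40, and 50.1% and 49.1% were lower. At these times 35.9% and 26.4% of protein-coding genes were listed. Of 30 mitosis genes 8 were higher and 9 lower at 0 min, 9 and 10 at 15 min, and 9 and 10 at 120 min. Their median log2 ratio was -0.26 at 0 min and -0.19 at 15 min, near the -0.28 and -0.21 of all listed genes. At 120 min the mitosis median was -0.38 against 0.40. In that list Cenpf was at 4.38 FPKM in WT against 18.0 in S51A before treatment, Kif11 at 39.7 and 88.0 FPKM and Nek2 at 14.3 and 28.4 FPKM, while Birc5 was at 265 and 133 FPKM, Mybl2 at 25.3 and 12.5 FPKM and Kif23 at 73.5 and 53.1 FPKM.

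Genes that lie beside the members did not always follow them. All 7 listed genes that start within 250 kb of Cdkn1c were lower in S51A at 0 and 15 min, against 50.4% of all genes listed at 0 min, as were all 6 listed at 120 min. They included Phlda2, another imprinted gene, at 1.24 FPKM in WT against 0.310 in S51A, Nap1l4 at 103 and 56.9 FPKM, and the decoy receptor gene Tnfrsf22 at 30.9 and 3.53 FPKM. Cdkn1c was thus on the opposite side from its listed neighbours. Around Cdkn2a, Mtap (methylthioadenosine phosphorylase) was at 220 FPKM in WT against 81.6 in S51A at 0 min and Gm12603 at 65.3 and 6.32 FPKM, both lower where Cdkn2a was higher. Tigar, next to Ccnd2, shared its direction, at 10.6 FPKM in WT against 4.89 in S51A. Rad51ap1, the other listed neighbour of Ccnd2, was higher in S51A at 15 min (34.5 and 39.7 FPKM) and 120 min (27.5 and 37.5 FPKM). Oraov1, the only listed neighbour of Ccnd1, was higher in S51A at 15 min, at 4.72 and 6.41 FPKM. Both listed neighbours of Cdkn2c, Rnf11 and Faf1, were lower in S51A. The neighbours of Cdk4 at 0 min were 9 higher and 4 lower, and those of Cdkn1b 2 higher and 3 lower.

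For each of the 6 genes listed at all times, the genes with the nearest pattern over the 6 group values were found by the root-mean-square difference of log2 FPKM plus 1 after removing each gene's mean, among 3285 genes. This likeness rests on 6 values that share libraries and a large difference between lines. Nearest to Ccnd1 was Hmga2, a chromatin architecture gene, with a difference of 0.094. Hmga2 was at 176 FPKM in WT against 13.6 in S51A at 0 min and at 99.0 and 14.0 FPKM at 120 min, close to the Ccnd1 values in level too. Next came Pde3b at 0.13, although it was at 10.9 FPKM in WT against only 0.166 in S51A at 0 min. Adding 1 FPKM narrows differences of genes with values this low. Ccnd2 lay nearest to Mfap3l (0.090) and Aim2 (0.16), Cdkn1b to Zfp808 (0.072) and Suox (0.077), and Cdkn1c to Tap2 (0.057) and Barx1 (0.084). Barx1 was listed at 0 FPKM in WT at each time, unlike Cdkn1c. Cdkn2a lay nearest to Trappc6a (0.046) and Sec62 (0.055), and Cdkn2c to Ano8 (0.045) and Cxcl12 (0.059).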

How the data were processed

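Per the labels' protocols, poly(A) RNA of 18 samples in 6 groups was sequenced single-end from directional libraries. STAR, Cufflinks, Cuffdiff and the mm10 build are named, without version or role, per the submitters' processing notes. The authors deposited 1 table per time, with log2 FPKM per line, their log2 ratio and its q-value per the file headers, so replicates had been combined before deposit. Every entry is marked significant, with q-values up to 0.05 in the authors' tables, and a log2 FPKM of -10 was read as 0. One further numeric column per table (3 in all) was not used. Symbols given more than once were dropped, leaving 7555, 8306 and 6117 genes at 0, 15 and 120 min. Table starts were raised by 1 to count from 1.

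No test across samples could be made, and the authors' call stands as the test. It replaces a limma fit foreseen only for values per sample. Nothing in the labels says that samples were separate cultures, so q-values may measure technical spread. Folds are ratios of the authors' FPKM. Gene identifiers, exonic lengths and exons came from GENCODE M21 (GRCm38), promoters from RefSeq. Calculations used Python 3.11.15 and pandas 2.3.3, and the profile search and centring were tested on simulated data. The members and the 7 lists were chosen with earlier results of these data known. One symbol of the turnover list (Kpc1, an older name of Rnf123) was counted once. Named genes were the members, a fixed set of 11 pathway genes, the 3 highest and 3 lowest ratios of each list at 0 min with at least 1 FPKM in the higher line, listed genes starting within 250 kb of a member, and the 2 nearest profiles. Not every gene that this rule names is reported here, and some list genes outside it are also given. Alternatives were a minimum of 2-fold, 5 FPKM in the higher line, q of at most 0.01, other pseudocounts and other centring.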

Additional observations from a re-analysis of the deposited data

How the results depend on the processing

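No paired analysis was possible because the tables hold 1 value per group and no sample numbers, and for the same reason no replicate could be left out. The depth behind each value is unknown. The log2 ratios of the members kept their direction with pseudocounts of 0.1 or 1 FPKM, moving by at most 0.27. Centring on the median of listed genes (-0.28, -0.22 and 0.40 at 0, 15 and 120 min) moved them by up to 0.40. Direction was kept then too, except that Cdk4 at 0 min came to 0.02. The order of the ratios over time did depend on centring. Ccnd1 was then at -3.33, -3.44 and -3.40, and Cdkn1c at 3.40, 3.49 and 3.10, at 0, 15 and 120 min. Changes over time moved by at most 0.18 with another pseudocount or centring. Member counts were within 1.5 times the reported ones with 5 FPKM, q of at most 0.01, joined symbols or centring.

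With a minimum of 2-fold, members higher in S51A numbered 2, 2 and 3 at 0, 15 and 120 min. With that minimum the retinoblastoma and E2F list had 2 higher and 1 lower at 0 min, 2 and 1 at 15 min, and 3 and 3 at 120 min. The turnover list had 0 and 0, 1 and 0, and 1 and 0. The Arf and p53 list had 0 and 2, 0 and 1, and 0 and 1. The Ccnd1 regulators had 4 and 5, 4 and 5, and 5 and 2. Imprinted genes had 6 higher and 3 lower at 0 min, 7 and 3 at 15 min, and 4 and 5 at 120 min, counting genes at 0 in WT as higher. The S phase list had 0 and 1, 0 and 0, and 1 and 1, and the mitosis list 2 and 1, 1 and 1, and 2 and 3. Of all genes listed at 0, 15 and 120 min, 22.1%, 20.2% and 26.5% were at least 2-fold higher in S51A. The shares at least 2-fold lower were 15.0%, 12.3% and 20.9%. Fewer genes pass this minimum by construction.

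With q of at most 0.01, imprinted genes had 3 lower and S phase genes 1 higher at 0 min, and the turnover list 3 higher and 2 lower at 15 min. At 120 min the retinoblastoma and E2F list then had 4 higher and 4 lower, the turnover list 2 lower, the Arf and p53 list 0 higher, and the S phase list 2 higher and 6 lower. Centring, added after seeing the data, left the Arf and p53 list with 2 higher at 15 min and 0 at 120 min. With 5 FPKM in the higher line all list counts stayed within 1.5 times the reported ones.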

Other observations

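Cdkn1c belongs to a group of imprinted genes that are known to be expressed together in the embryo, and other genes imprinted in at least some tissues were read beside it. Of 22 such genes 13 were listed at 0 min, 7 higher and 6 lower in S51A, 14 at 15 min with 7 and 7, and 12 at 120 min with 6 and 6. Of protein-coding genes 33.0%, 35.9% and 26.4% were listed at these times. Of all listed genes 49.6%, 49.9% and 50.9% were higher, near the split of this list. Over imprinted genes with both lines above 0 the median log2 ratio was -0.26 at 0 min, against -0.28 over all listed genes. It was -0.64 against -0.21 at 15 min and -0.75 against 0.40 at 120 min. Mest, a paternally expressed gene, was on the side of Cdkn1c, at 1.53 FPKM in WT against 11.3 in S51A before treatment. Both Dlk1 (1.95 FPKM in S51A) and Gatm (5.10 FPKM in S51A) were listed at 0 in WT. H19, a maternally expressed noncoding RNA, had the opposite direction, at 17.8 FPKM in WT against 6.15 in S51A, as had the proteoglycan gene Dcn at 54.2 and 8.88 FPKM. Meg3 was on the side of Cdkn1c, at 1.56 and 8.40 FPKM at 0 min, and Igf2 on the side of H19, at 24.1 and 19.4 FPKM. Whether direction goes with the parent of origin was not tested.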
